A study of Mus musculus with 3 samples.

Results

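The carbonic anhydrase genes Car2, Car3, Car4, Car8, Car12, Car13 and Car14 were read on 3 Affymetrix arrays of sorted mouse cells, 1 array per group. These 7 genes were taken, out of 18193 genes with a probe set of their own, because Car8 and Car3 had high values in Flk1+ cells and the family shows whether that is shared. They have 17 probe sets, groups of short probes that read the RNA of 1 gene. The cells came from A2.snail embryonic stem cells, in which doxycycline switches on the epithelial repressor Snail. They had grown as embryoid bodies, floating aggregates, in medium with serum and the Wnt inhibitor DKK1, and were sorted at day 3 on Flk1, the VEGF receptor of mesoderm that forms vessels and blood. The groups are untreated Flk1- cells (0 ng/mL doxycycline), and Flk1- and Flk1+ cells with 250 ng/mL doxycycline from day 2, called Snail-induced here as they are labelled. DKK1 was present in all 3 groups. Untreated Flk1+ cells were not analysed here, nor were cells that received doxycycline but lack the inducible Snail, so doxycycline and Snail cannot be told apart. The labels do not say how many clones or cultures stand behind each array.

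Carbonic anhydrases are zinc enzymes that turn carbon dioxide and water into bicarbonate and a proton and back, and so set the pH of cells and of the space around them. Car2, Car3 and Car13 work in the cytosol. Car4 is tied to the outer cell surface by a lipid anchor and is known from capillary endothelium, while Car12 and Car14 span the membrane with the catalytic part outside. Car8 has lost the enzyme activity and is known to bind the IP3 receptor, a calcium channel of the endoplasmic reticulum.

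Each value is an intensity in array units as deposited. A floor of 25.6 units, the 40th percentile of all values, separates dim from measured values, and 13974 genes reached it on at least 1 array. With 1 array per group nothing measures the spread between cultures or sorts, so the differences have no replicate check, and neither a test nor an error is given. Differences are described by size, at least 2-fold, on the scale of log2(intensity + 9.53). If the dimmer of 2 values was below the floor, the brighter was divided by the floor, and the fold is written as "at least". Counts of genes past 2-fold use the log2 difference, so a counted gene with a value under the floor can have a bound below 2-fold, and such genes are named below. Median intensities of the arrays were 42.7, 42.4 and 44.6 in the order untreated Flk1-, Snail-induced Flk1- and Snail-induced Flk1+, the order used for all triples below. The only Snai1 probe set gave 29.1, 13.1 and 19.8 around or below the floor, so the induced gene was not seen with it, and the labels do not say if its probes match the transgene. Kdr, the gene of the sorted protein, gave 10.5, 9.73 and 404.

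All 7 members were measured by their brightest probe set. The members did not share 1 pattern. Car8 was high on the Flk1+ array alone, Car3 was higher on each Snail-induced array than on the untreated one, Car2 was higher on the Flk1+ array by slightly less than 2-fold, and Car14 was lower there. Car13 was lower on the Flk1+ array by less than 2-fold, and Car4 and Car12 stayed within 1.27-fold in every comparison. Of the 17 probe sets, 10 reached the floor on all 3 arrays, 3 on the Flk1+ array only, and 4 on none.

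**Figure D1:**
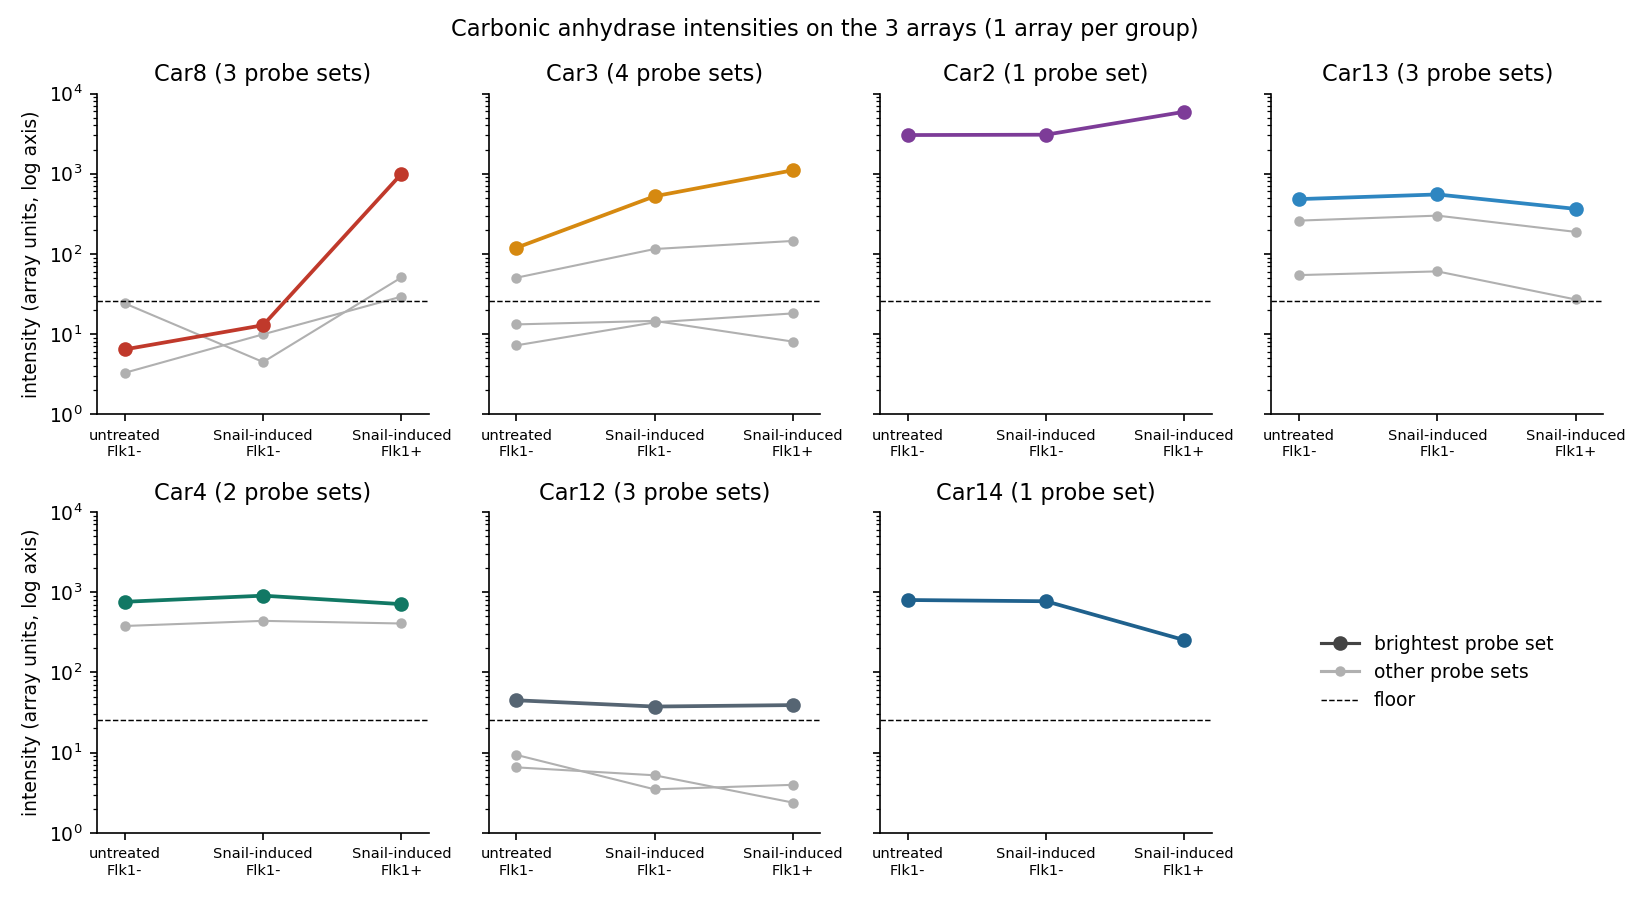
Intensity in array units (log axis) of every member probe set on the 3 arrays, with the brightest probe set of each gene in colour, the others in grey and the floor of 25.6 as a dashed line. Car8 goes from 6.44 and 12.9 to 993, Car3 from 119 through 523 to 1103, and Car14 from 799 and 771 to 253, while Car4 stays between 710 and 905.

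Car8, the member without enzyme activity, gave 6.44, 12.9 and 993 with its brightest probe set. Both Flk1- values lay under the floor, so the Flk1+ array was at least 38.8-fold higher than either. Its other probe sets were also highest on the Flk1+ array, but dim: 1 gave 24.1, 4.48 and 50.8, at least 1.99-fold higher there, and the other gave 3.29, 9.93 and 29.3, at least 1.15-fold higher. The log2 difference between Snail-induced Flk1+ and Flk1- cells was 5.48, and 5.28 with values under the floor raised to it. Between the Flk1- arrays no fold is given, since all 3 probe sets were under the floor on both. These Flk1+ values chose the gene and are a description.

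Car3, a slow enzyme best known from muscle, fat and liver, gave 119, 523 and 1103. It was thus 4.14-fold higher in Snail-induced than in untreated Flk1- cells, and again 2.09-fold higher in Snail-induced Flk1+ than in Snail-induced Flk1- cells. From untreated Flk1- to Flk1+ cells the difference was 8.64-fold. The second Car3 probe set gave 50.4, 115 and 145, which is 2.08-fold, 1.24-fold and 2.59-fold in the same 3 comparisons. The order of the arrays was the same in both probe sets, while the step at the Flk1 gate was under 2-fold in the second. The remaining 2 Car3 probe sets stayed under the floor everywhere, between 7.23 and 18.1.

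Car2, the fast and widespread cytosolic enzyme, which is abundant in red cells, gave 3033, 3063 and 5915 with its only probe set. The Flk1- arrays were 1.01-fold apart. The Flk1+ array was 1.93-fold above Snail-induced Flk1- and 1.95-fold above untreated Flk1- cells, just short of the 2-fold limit. Car13, the third cytosolic enzyme, gave 482, 551 and 364. Its other probe sets gave 260, 300 and 188, and 54.4, 60.5 and 27.0. All 3 were lowest on the Flk1+ array and slightly higher on the Snail-induced than on the untreated Flk1- array. Against Snail-induced Flk1- cells the brightest was at a log2 difference of -0.59 and the others were 1.57-fold and 1.91-fold lower, the dimmest probe set ending just above the floor.

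Among the membrane enzymes, Car14 gave 799, 771 and 253. The Flk1- arrays were 1.03-fold apart, and the Flk1+ array was 2.98-fold below Snail-induced and 3.08-fold below untreated Flk1- cells. Car14 has this 1 probe set, whose suffix marks probes that can read several transcripts, so no second reading of the gene stands beside it. Car4 gave 759, 905 and 710, and 379, 439 and 407 with its second probe set, at most 1.27-fold apart. Car12 gave 44.9, 37.5 and 39.1, at most 1.16-fold apart, and its other 2 probe sets stayed under the floor. In material made from many cells, fewer cells that express a gene and less RNA per cell cannot be told apart.

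Counted over the family, 1 of 7 members (Car3) was at least 2-fold higher in Snail-induced than in untreated Flk1- cells and 0 were lower. Among all measured genes the shares were 3.00% higher and 2.06% lower, and 2.27% and 2.89% after each array was centred on its median. Car3 stood 38th from the top. The members' median log2 difference was 0.19, beside 0.04 over all measured genes. With the mean of all 4 Car3 probe sets, 2 of them under the floor, its log2 difference was 0.92 in place of 2.05, and 0 members passed 2-fold.

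In Snail-induced Flk1+ against Flk1- cells, 2 of 7 members (Car8 and Car3) were higher and 1 (Car14) lower, beside 4.94% of all measured genes in each direction. The members' median log2 difference was 0.05, beside 0.00 over all genes. Against untreated Flk1- cells the same 2 members were higher and Car14 lower, beside 8.24% of all genes higher and 6.47% lower. The median there was -0.10, beside 0.01. Since the members were chosen by Car8 and Car3 in Flk1+ cells, nothing is read from these counts. The 3 comparisons share arrays, and the log2 differences of the first and second add up to that of the last. With the mean of all probe sets Car3 differed by 0.29 between Flk1+ and Snail-induced Flk1- cells on the log2 scale, in place of 1.06, and Car8 by 2.86 in place of 5.48. Car14 has no value once probe sets of that suffix are left out.

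**Figure D2:**
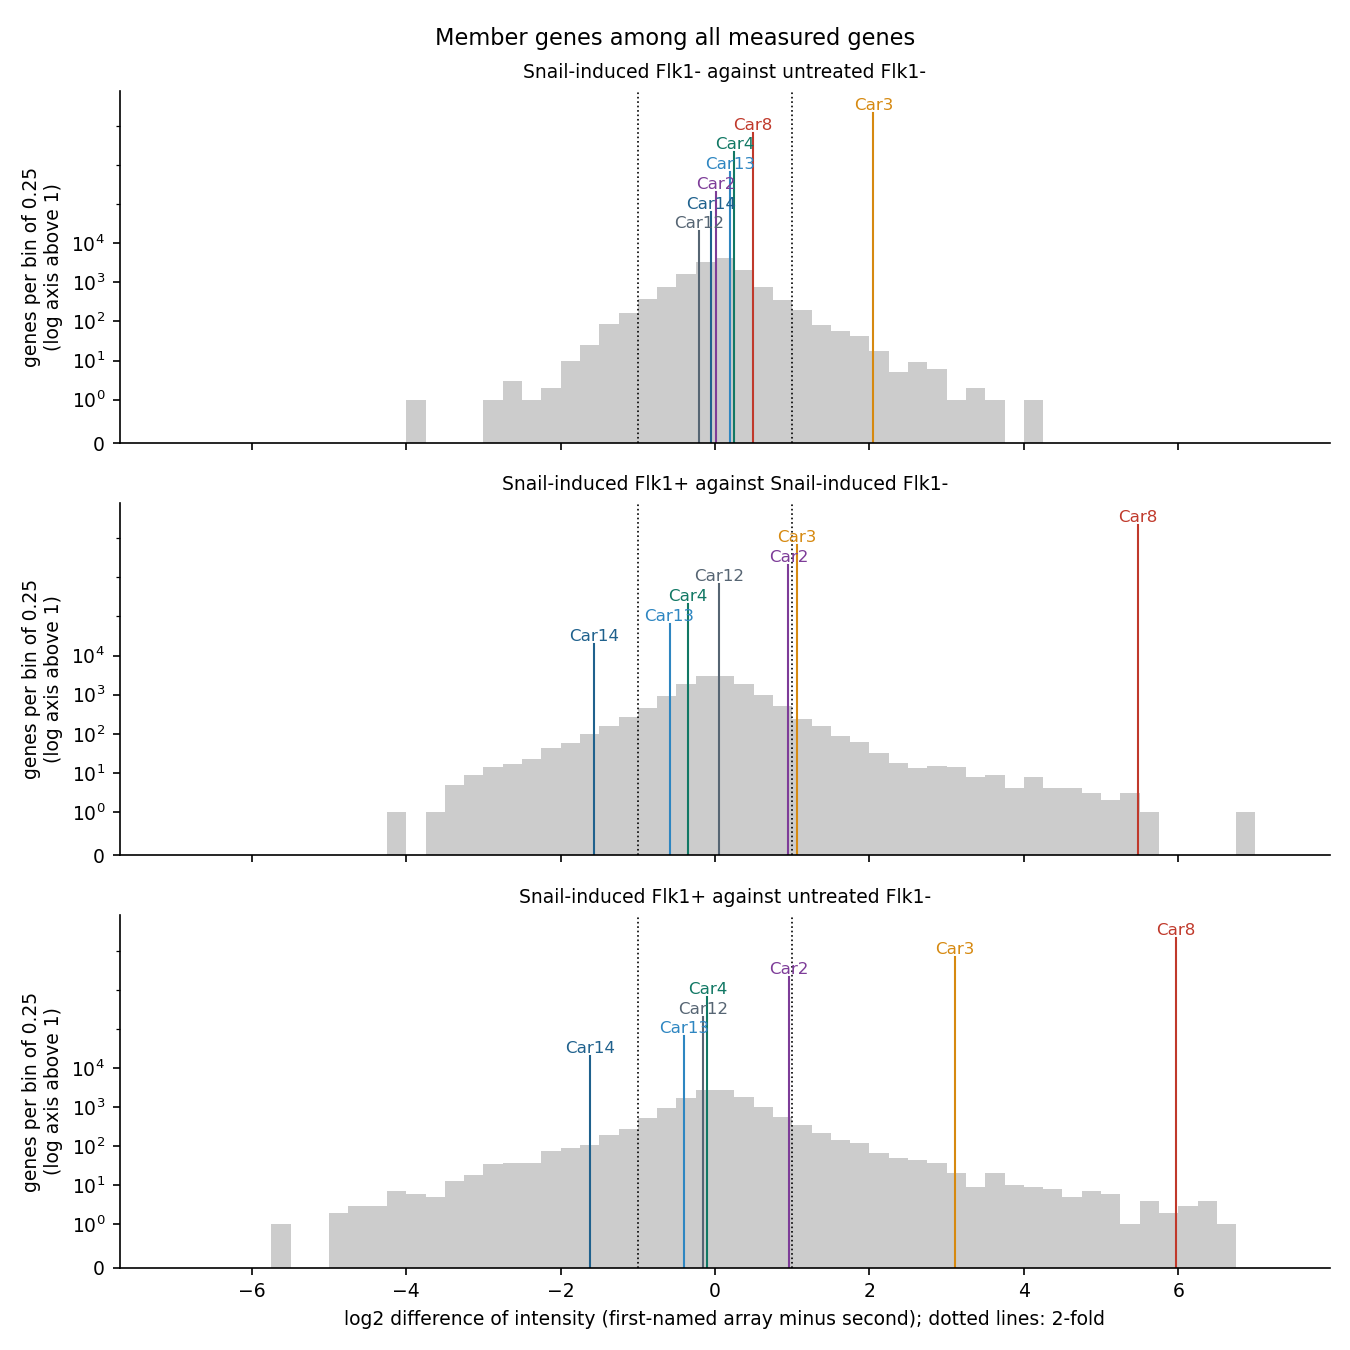
Histograms of the log2 difference of all 13974 measured genes in bins of 0.25 (grey, log axis above 1), 1 panel per comparison, with the 7 members as labelled lines and 2-fold as dotted lines. Car3 lies at 2.05, 1.06 and 3.11 in the 3 panels, Car8 at 5.48 and Car14 at -1.57 in the second, and the other members lie within 2-fold in each; the first Car8 line rests on values under the floor, and line heights carry no value.

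Of 9 other carbonic anhydrase genes on the arrays, 6 were measured. Car1, an enzyme of red cells, Car6, the secreted enzyme of saliva, and Car10, a form without activity, stayed under the floor on all arrays. The 6 measured genes are Car5a and Car5b, which are mitochondrial, Car7 of the cytosol, Car9 and Car15 of the cell surface, and Car11, also without activity. Of these 6, 0 were at least 2-fold higher in any comparison. Car7 gave 94.3, 38.2 and 20.9, which is 2.18-fold lower in Snail-induced than in untreated Flk1- cells and at least 3.69-fold lower in Flk1+ than in untreated cells. Its second probe set gave 57.5, 30.4 and 19.8 and kept that order, and the third lay under the floor. Car15 gave 43.5, 16.1 and 22.0, and was the other gene counted as lower in the first comparison, but with its Snail-induced value under the floor the bound is at least 1.70-fold. Car5a gave 18.9, 33.9 and 5.99, so its 2-fold difference at the Flk1 gate rests on values around the floor. Car9, a known target of the hypoxia response, gave 41.4, 38.8 and 23.1, and Car11 gave 71.6, 39.5 and 62.5. The medians of the 6 genes were -0.55, -0.44 and -0.72 in the 3 comparisons, beside 0.04, 0.00 and 0.01 over all measured genes. They rest largely on dim values: at the gate and against untreated cells only Car11 had both values above the floor.

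**Figure D3:**
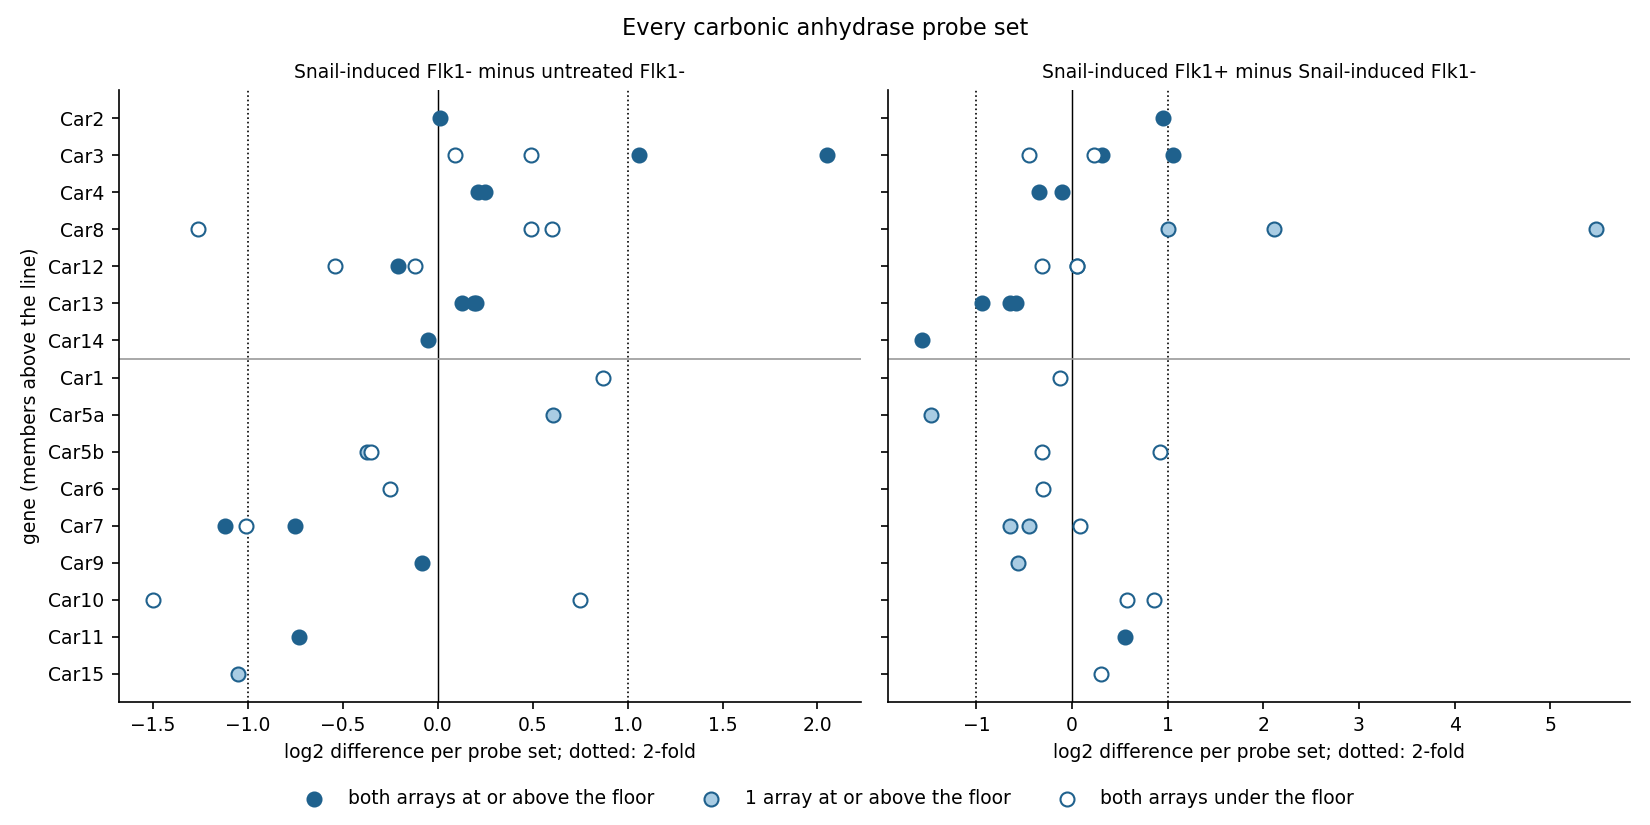
Log2 difference of each probe set of the 7 members (above the line) and of 9 other carbonic anhydrases, for Snail-induced against untreated Flk1- cells (left) and Flk1+ against Flk1- Snail-induced cells (right), filled by how many of the 2 arrays reached the floor. On the right the brightest Car8 probe set lies at 5.48 and another at 2.11, and the 3 Car13 probe sets between -0.94 and -0.59; most of the other carbonic anhydrases are pale or open, that is, under the floor on at least 1 of the 2 arrays.

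The receptor phosphatases Ptprg and Ptprz1 carry a carbonic anhydrase-like domain outside the cell. Ptprg gave 462, 902 and 1410, 1.93-fold higher in Snail-induced than in untreated Flk1- cells, 1.56-fold higher at the Flk1 gate and 3.01-fold higher over both. All 4 Ptprg probe sets had this order. The brightest Ptprz1 probe set passed the floor on the Snail-induced Flk1- array only (47.3).

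Position was looked at because Car13, Car1, Car3 and Car2 lie next to each other in this order among the protein-coding genes of the RefSeq gene table. Neighbouring members did not all move alike. At the Flk1 gate the log2 differences were -0.59 for Car13, 1.06 for Car3 and 0.95 for Car2, with Car1 under the floor between Car13 and Car3. Car3 and Car2 were thus close to each other there by their brightest probe sets, while the second Car3 probe set was at 0.31. In the first comparison Car3 was at 2.05, while Car13 and Car2 were at 0.19 and 0.01. With other scalings the value of Car2 went as low as -0.09. The genes on the Car13 side, Rbis, E2f5 and Lrrcc1, lay between -0.22 and -0.07 at the gate. Sirpb1a on the Car2 side was under the floor. Around Car8, the genes read were Tox, Nsmaf and Sdcbp on 1 side and Rab2a, Chd7 and Clvs1 on the other. All were higher at the gate, as Car8 was, but by 0.36 to 0.88, each short of 2-fold, beside 5.48 for Car8. In Flk1+ against untreated cells they were between 0.35 and 1.79, with Tox (1.79) and Clvs1 (1.46) past 2-fold, beside 5.97 for Car8. Tox, a chromatin protein gene, gave 18.4, 65.7 and 86.7. Its log2 difference between Snail-induced and untreated Flk1- cells was 1.43, with the untreated value under the floor. Next to Car14 (-1.57 at the gate), Aph1a and Anp32e were at 0.58 and 0.11.

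**Figure D4:**
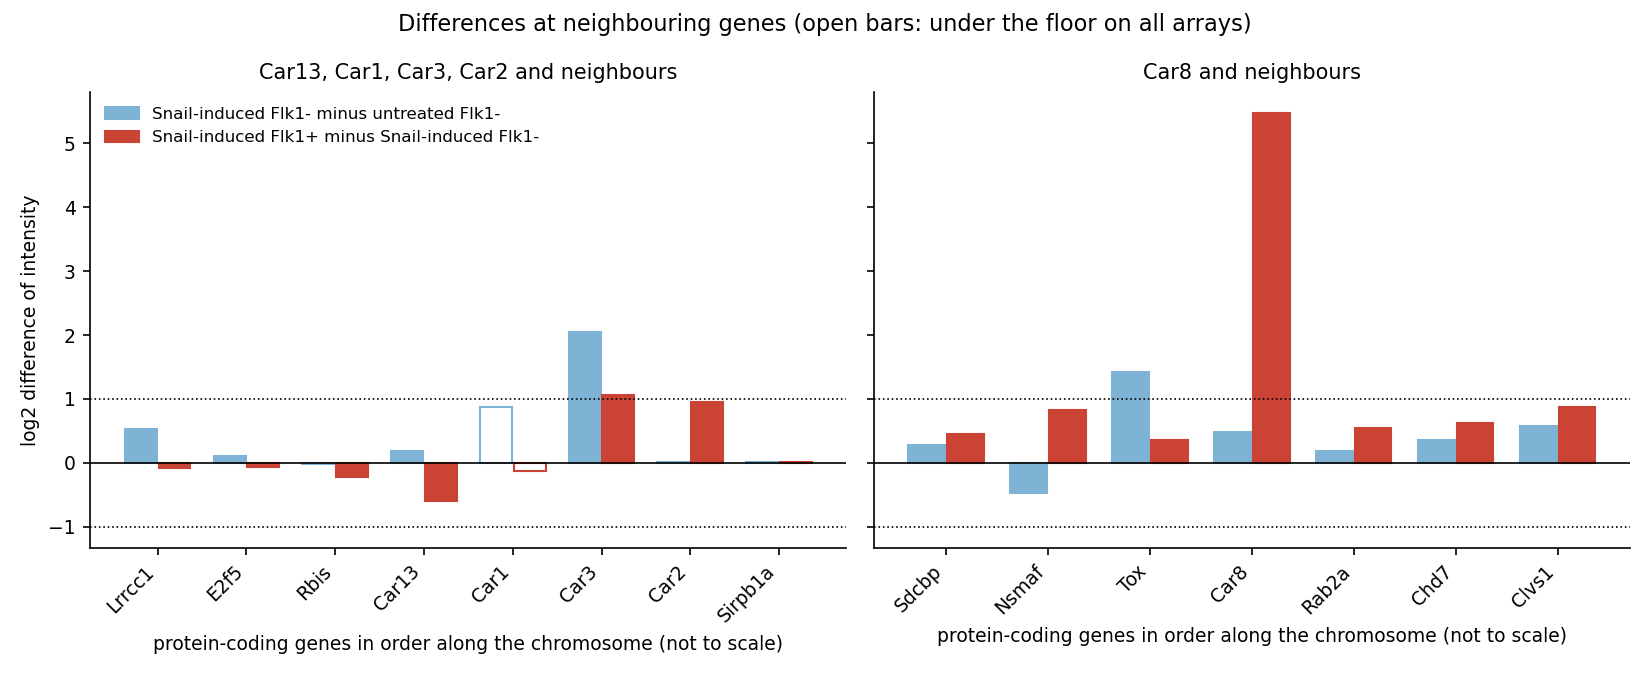
Log2 differences of protein-coding genes in their order along the chromosome (not to scale; genes without a probe set of their own are skipped), left for the Car13 to Car2 cluster and right for Car8, in blue for Snail-induced against untreated Flk1- cells and in red for Flk1+ against Flk1- Snail-induced cells. Car3 (2.05 and 1.06) and Car2 (0.01 and 0.95) are adjacent, and the red bar of Car8 (5.48) stands above those of its neighbours (0.36 to 0.88).

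RefSeq promoter windows (build GRCm38.p6, 250 bases before to 50 after a start site) were found for 3 of the 7 members, Car4, Car12 and Car14. The motif CAGGTG, on either strand, is a preferred sequence of Snail proteins and is 1 form of the E-box CANNTG. It had 0 matches in the 3 windows, and 20.2% of all 32851 windows hold it. The wider E-box CANNTG, which 72.3% of windows hold, had 1 match, in Car14, the member that was lower in Flk1+ cells. It is shown with the E-box in capitals, at chr3:95904637-95904666 on the minus strand, the E-box starting at base 32 counted from the start site as base 1.
Car14: aaaagcgggaggCAACTGtgaagttgctgg
The E-box here is CAACTG. A match is a description of these letters and not a binding site.

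Genes with the most similar pattern over the 3 arrays were named by the distance between log2 values centred per gene, after values under the floor were raised to it. With 3 arrays such likeness is loose: 34 genes lay within 0.5 of Car3, 9 of Car8 and 331 of Car14. Nearest to Car8 were Gata2, a transcription factor gene of blood and endothelial precursors (distance 0.02), Igf1 (0.10), Hapln1 (0.11), Sox18, an endothelial transcription factor gene (0.17), and Cbfa2t3 (0.17). Gata2 gave 4.67, 11.3 and 1011. For such genes the Flk1- values are at or close to the floor, so the distance compares chiefly their Flk1+ values. Nearest to Car3 were Gap43 (0.07), Zeb2, a repressor of epithelial genes (0.08), Serpinf1 (0.11), Amot (0.15) and Heph (0.17). The untreated values of Gap43 (24.7) and Heph (23.9) lay under the floor and were raised to it. Zeb2 gave 64.9, 268 and 557. Nearest to Car14 were Zfp296 (0.01), Ahr (0.04), Dbp (0.07), Hpn (0.08) and Myo10 (0.09). On the Flk1+ array Zfp296 (24.3) and Hpn (23.4) were under the floor, so their distances use the raised value. Ahr, which encodes a ligand-activated transcription factor, gave 527, 510 and 161.

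The list counts below stand beside the shares of all measured genes. These were 3.00% higher and 2.06% lower in the first comparison, and 4.94% each way at the gate. Against untreated cells, 8.24% were higher in Flk1+ cells and 6.47% lower. The medians over all measured genes were 0.04, 0.00 and 0.01. In lists this short, nothing is read from counts of 1 or 2. Bicarbonate transporters work beside carbonic anhydrases. Of 11 measured genes, 0 were past 2-fold in Snail-induced against untreated Flk1- cells, and 1 was higher and 0 lower at the Flk1 gate. That gene, Slc4a4, a sodium bicarbonate cotransporter, gave 65.4, 88.7 and 226, 2.40-fold higher in Flk1+ than in Snail-induced Flk1- cells. Slc4a2, a chloride bicarbonate exchanger, gave 103, 157 and 207. Slc4a3 went the other way, with 99.3, 91.2 and 59.0, 1.59-fold lower in Flk1+ than in untreated cells. The list medians were 0.10, 0.37 and -0.26 in the 3 comparisons. Among 13 measured genes of proton exchange and export, 1 was lower in the first comparison, 1 higher and 1 lower at the gate, and 2 lower in Flk1+ against untreated cells, with medians of -0.29, -0.09 and -0.13. Slc9a3r1, a scaffold protein that binds proton exchangers, gave 2332, 1576 and 560, 2.79-fold lower at the gate and 4.11-fold lower over both steps. Hvcn1, a proton channel, gave 753, 490 and 334. Slc9a3, a proton exchanger, gave 200 and 210 on the outer arrays and 16.9 in Snail-induced Flk1- cells and made up the other calls.

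The IP3 receptor and calcium list was read for Car8. Itpr1, the receptor that Car8 is known to bind, was not analysed here. Of 10 measured genes, 1 was higher and 1 lower in the first comparison, 0 higher and 2 lower at the gate, and 1 higher and 1 lower over both. The shares and medians over all measured genes given above apply here too. The medians were 0.18, 0.08 and 0.16. Itpr2, another IP3 receptor, gave 14.4, 40.8 and 79.8. It is the gene counted as higher in the first comparison, with a bound of 1.60-fold, and was at least 3.12-fold higher in Flk1+ than in untreated cells. Itpr3 gave 215, 189 and 198. Plcg2, an enzyme that makes IP3, gave 1017, 411 and 159, 2.44-fold lower in the first comparison and 2.50-fold lower at the gate. Its relative Plcg1 gave 869, 1138 and 1568. Ryr2 is the other gene counted as lower at the gate, from 27.3 to 7.59, which gives a bound of only 1.07-fold. Of 5 measured water and gas channels, 0 were past 2-fold in the first comparison, and 2 were lower and 0 higher in each of the others: Aqp11 gave 126, 76.7 and 20.4, and Rhbg, an ammonia channel, 49.9, 57.8 and 18.2, at least 1.95-fold lower in Flk1+ than in untreated cells. The medians were -0.22, -0.22 and -0.91.

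**Figure D5:**
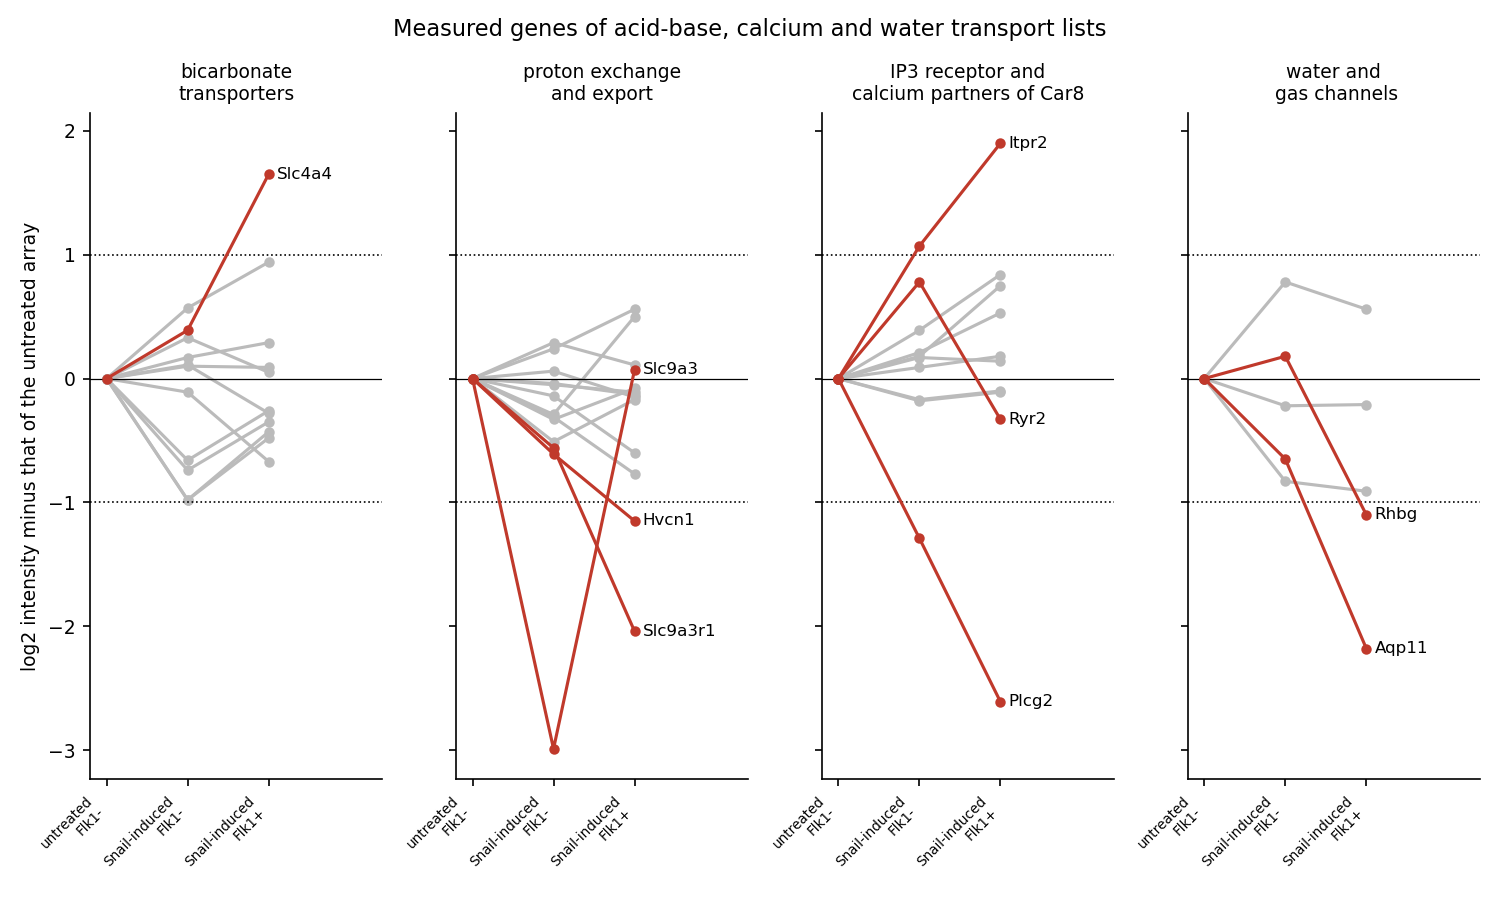
Log2 intensity of each measured gene of 4 lists, minus that of the untreated Flk1- array, on the 3 arrays, with genes at least 2-fold apart in any comparison in red and named, and 2-fold as dotted lines. Slc4a4 and Itpr2 end above 1 (1.65 and 1.90), and Plcg2, Aqp11, Slc9a3r1, Hvcn1 and Rhbg end below -1, Plcg2 at -2.61.

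Markers of cell types in which these enzymes are known were read beside them. Summed intensities cover every marker of a list with a probe set, also those under the floor. Endothelial precursor markers were higher at the Flk1 gate, as Car8 was. There 10 of 10 were counted as higher and 0 as lower, beside 4.94% of all measured genes in each direction. By the floor, 8 of them were also at least 2-fold higher, with Tie1 (2.52 and 42.8) and Pecam1 (10.9 and 44.8) at least 1.67-fold and 1.75-fold higher. Unlike Car8, Tek (58.1, 82.0 and 920), Esam (51.1, 44.6 and 688) and Etv2 (356, 711 and 2467) were above the floor on all arrays. The summed intensity of the 10 markers was 553, 933 and 6463. Kdr is among them, and their part in the Car8 value was not tested. Of 8 pluripotent epiblast markers, 4 were at least 2-fold lower at the gate, as Car14 was, and 0 in the first comparison. The other 4 were lower at the gate by less than 2-fold: Utf1 (2697 and 1434), Pou5f1 (5963 and 3607), Esrrb (238 and 197) and Tdgf1 (6683 and 6488). The list had summed intensities of 30763, 33410 and 17217. Their part in the Car14 value was not tested. Pou5f1 gave 5224, 5963 and 3607, 1.65-fold lower at the gate. For Car2, 6 of 9 primitive erythroid and blood markers were measured, 2 of them counted as higher at the gate. The 9 summed to 536, 352 and 548, of which Itga2b gave 295, 182 and 262. Ptprc gave 38.4, 7.46 and 60.6, so its Flk1+ value was at least 2.37-fold above Snail-induced Flk1- but 1.46-fold above untreated cells. Hba-x reached 38.1, a bound of 1.49-fold. Gata1 (51.3, 32.5 and 44.5), Epor (76.0, 67.0 and 75.1), Itga2b and Hbb-bh1 were within 2-fold in every comparison. Against untreated cells 0 of the 6 were counted as higher in Flk1+ cells. Klf1, Hbb-y and Alas2 were under the floor on all arrays.

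For Car3, skeletal muscle markers summed to 262, 303 and 397. Myog, Myf5 and Tnnt3 were under the floor on all arrays, and Des, a filament gene of muscle that other cells also express, was the only measured marker past 2-fold in any comparison (89.6, 138 and 237). Of 5 adipocyte markers, Adipoq, Pparg, Lep and Cidec were under the floor on all arrays and Fabp4 reached 26.2 at most. Fibroblast or feeder markers summed to 402, 800 and 539. Of 5 measured genes, 3 were higher in Snail-induced than in untreated Flk1- cells, where Car3 was higher too, beside 3.00% of all measured genes. At the gate Dcn was 4.19-fold lower, Lum was under the floor on both arrays though counted as lower, and Col3a1 was 1.53-fold higher (122 and 191). Col1a1 and Postn were under the floor on all arrays, and their part in the Car3 value was not tested. Of the visceral endoderm markers, Afp, Ttr, Apoa1 and Foxa2 were under the floor on all arrays, and the list summed to 586, 747 and 506. Rbp4 gave 56.8, 143 and 138, 2.30-fold higher in the first comparison, and Cubn gave 220, 257 and 44.0, 4.99-fold lower at the gate. For Car8, a Purkinje cell gene, Pcp2 and Calb1 were under the floor on all arrays. Of the 3 measured genes of the Purkinje and neural list, Pvalb gave 109, 78.3 and 87.7, and Tubb3 gave 175, 259 and 270. Neurod1 gave 82.3, 65.2 and 21.0, at least 2.55-fold lower at the gate, where Car8 was higher. The list summed to 387, 428 and 407.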

How the data were processed

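Per the labels' protocols, biotinylated cRNA was made from total RNA by the standard Affymetrix procedure. The authors deposited linear intensities, 1 for each probe set on each array, which run from 0.5 to 18191. The sources used here do not give how probes were summarised or arrays scaled. Of 45037 probe sets, 34945 had 1 symbol and were used, 932 had several and 9160 none. Symbols came from GEO's platform annotation, updated through Entrez IDs with the RefSeq table of GRCm38.p6 (204 had no match). Each gene was read from its brightest probe set by mean. The offset of 9.53 is the 20th percentile of all values and understates differences of dim genes. Columns were used as deposited. The 3 groups have 1 array each, and this number limits the precision; no test was run. The counting step was tested on simulated arrays that were identical and without noise, apart from changes planted in bright genes. That checks the code only, and not calls from single arrays or values near the floor. Python 3.11.15, numpy 2.4.6 and pandas 2.3.3 were used.

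The text names all members and the other carbonic anhydrases. From each other list it names part of those taken by the rule (up to 4 measured genes with the largest difference and up to 2 going the other way, per comparison), and other list genes, such as Itpr3, Plcg1, Slc4a2 and markers under the floor, were named after their values were seen. The 5 genes most like a member were named for members past 2-fold in any comparison. Members and lists were chosen with earlier results of these data known. Alternatives were quantile normalisation, centring, the mean of all probe sets, leaving out probe sets with the suffixes _s_at and _x_at, the floor removed or moved to the 60th percentile, no offset, values raised to the floor, and a 3-fold limit.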

Additional observations from a re-analysis of the deposited data

How the results depend on the processing

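The counts of members past 2-fold moved with some choices. In Snail-induced against untreated Flk1- cells the 1 higher member (Car3) became 0 with the mean of all probe sets and 2 (Car3 and Car8, the latter between values under the floor) without the offset. In Flk1+ against Flk1- Snail-induced cells the 2 higher members became 1 (Car8) with the mean of all probe sets or a 3-fold limit. The 1 lower member (Car14) became 0 with a 3-fold limit, and 0 there and against untreated cells without the _s_at and _x_at probe sets, where Car14 has no probe set left. The other alternatives gave counts within 1.5 times of those reported. Of 159 alternative log2 differences of single members, 151 moved by less than 1.5 times, 8 by more and 0 of those past 2-fold changed sign. The 8 were all of Car3 and Car8. Car2 in the first comparison lay between -0.09 and 0.01, and Car8 there, with both values under the floor, also changed sign, reaching -0.06 with the mean of all probe sets. With the mean of all probe sets, and with the floor at the 60th percentile, Car12 was not measured. No paired analysis was possible because each group has 1 array. The depth of the measurement is limited by the dimness of Car12 and of the dimmer Car8 probe sets, which lie close to the floor.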
